A study of Homo sapiens with 27 samples.

Results

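Expression was followed for 37 genes of the lysosome, which encode 10 sugar-cleaving enzymes and their partners in glycan breakdown, 6 proteases, 5 proteins of lipid handling, 7 membrane proteins and 9 proteins of the proton pump. The genes were taken by symbol from a list drawn up with earlier results of these data known, and 37 of 37 were found among the 20987 genes of the deposited table. The 27 libraries of poly(A) RNA came from 3 established human prostate cancer cell lines: LNCaP, labelled androgen sensitive, and 22Rv1 and LNCaP95, both labelled castration resistant. Cells of each line were cultured for 6 days with the vehicle DMSO, with 100 nM IPI-9119 or with 500 nM IPI-9119, which blocks FASN, the fatty acid synthase, and the medium was not replaced. Each of the 9 groups of line and dose held 3 libraries, so that n = 3 per group throughout. Cells and conditioned medium were pelleted together. The labels do not say whether the libraries of a group came from separate cultures, so p-values reflect only how far these libraries vary, which may be technical variation.

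Lysosomes are acidic organelles in which macromolecules delivered by endocytosis and autophagy are broken down. A V-type ATPase in their membrane pumps protons inward and keeps the lumen at the pH that the hydrolases need, and NPC1 and NPC2 carry cholesterol, released from lipoproteins by the acid lipase LIPA, out of the organelle. Many lysosomal genes carry the CLEAR element, a DNA motif bound by TFEB and its relatives TFE3 and MITF, and NPC1 is also known as a target of the sterol-responsive SREBP factors. Fatty acid synthase makes palmitate, which cells also take up from outside, in part through lipids that pass the lysosome.

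Promoter stretches are shown because the CLEAR core separates some of these genes from most promoters. Of the 37 genes, 23 had an entry in the RefSeq promoter table (GRCh38.p14), and the 250 bases before each start were searched on both strands. The letters TCACGTGA, the core of the CLEAR element, were present in 5 of 23 (GAA, CTSA, LAMP1, MCOLN1 and ATP6V0D1), against 0.890% of 27305 promoters in the table. Among the 14172 of these promoters whose genes are in the deposited table, the share was 1.30%. The E-box CACGTG, which lies within TCACGTGA, was present in 10 of 23, which were those 5 with NEU1, CTSD, CTSF, CD63 and CLN3. It was present in 6.49% of all promoters and in 7.90% of those of genes in the deposited table. TCACNCCAC, a form of the sterol regulatory element, was present in 0 of 23, against 0.875% of all and 0.903% of those of genes in the deposited table. A match describes the letters only. Stretches of 60 bases before the start are given 5′ to 3′ on the gene's strand, with TCACGTGA in capitals in the first 5 and CACGTG in capitals for NEU1 and CTSD. NEU1 and CTSD were added after their values were seen, for their rise in several lines. The stretches lie at chr17:80101500-80101559 (+, GAA), chr20:45891275-45891334 (+, CTSA), chr13:113297179-113297238 (+, LAMP1), chr19:7522564-7522623 (+, MCOLN1), chr16:67481184-67481243 (-, ATP6V0D1), chr6:31862915-31862974 (-, NEU1) and chr11:1763942-1764001 (-, CTSD), all in GRCh38.p14.
GAA: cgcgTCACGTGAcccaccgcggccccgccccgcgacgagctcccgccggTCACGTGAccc
CTSA: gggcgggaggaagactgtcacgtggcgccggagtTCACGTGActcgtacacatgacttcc
LAMP1: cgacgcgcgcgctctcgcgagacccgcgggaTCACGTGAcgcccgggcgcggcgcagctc
MCOLN1: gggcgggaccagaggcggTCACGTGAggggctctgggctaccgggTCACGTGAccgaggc
ATP6V0D1: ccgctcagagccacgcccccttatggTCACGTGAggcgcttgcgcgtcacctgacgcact
NEU1: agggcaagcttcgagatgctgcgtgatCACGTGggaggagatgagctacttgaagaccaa
CTSD: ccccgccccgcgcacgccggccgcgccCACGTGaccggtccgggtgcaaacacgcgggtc

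Reads in genes numbered 14757874 to 26578881 per library. Some libraries stood apart from their group. Over 7 mitosis genes the mean log2 level was 10.79 in LNCaP DMSO replicate 1 and 9.28 and 9.04 in replicates 2 and 3, and 10.55 to 11.45 in the 6 treated LNCaP libraries, whose part in the LNCaP calls was not tested. FASN itself, which encodes the target, was 227517 in LNCaP 100 nM replicate 1, 51994 and 45537 in 100 nM replicates 2 and 3, and 126294 to 234767 at 500 nM, against 28676 to 54998 with DMSO. Genes above 0 numbered 18444 in 22Rv1 DMSO replicate 3 and 15585 to 15962 in the remaining 8 libraries of that line. In LNCaP95, mitochondrially encoded genes took 7.56% (100 nM) and 6.92% (500 nM) of counts in the treated replicate 2 libraries, against 1.78% to 3.75% in the other 7, and the mitosis mean was 12.18 to 12.28 with DMSO and 10.38 to 10.94 with drug. Luminal prostate markers summed to 48559 to 96195 normalised counts and basal markers to 0 to 18.5. Macrophage markers, whose cells are rich in lysosomes, summed to 3.00 to 18.6 in LNCaP and 22Rv1 and to 69.1 to 151 in LNCaP95, mostly from PTPRC. Fibroblast markers summed to 1423 to 2242 in LNCaP95, led by LUM, and to 248 to 447 in the other lines. In bulk RNA a changed level in every cell and a changed share of cells cannot be told apart.

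After IPI-9119 most of the lysosomal genes rose in LNCaP95, while in LNCaP and 22Rv1 most did not pass the test. Values are normalised read counts (reads per gene over the library's size factor), and log2 fold changes are differences of log2(normalised count + 1), given ± SE. A gene is said to have risen or fallen where limma gave a Benjamini-Hochberg adjusted p under 0.05 over all genes tested. In LNCaP95, 30 of 36 tested lysosomal genes rose and 2 fell at 100 nM, and 30 rose and 1 fell at 500 nM, where 52.3% of all genes tested were called at either dose, 28.2% as higher and 24.1% as lower. In LNCaP, 11 of 36 rose and 0 fell at 100 nM, where 25.3% of all genes were called (13.7% higher, 11.6% lower), and 10 rose and 1 fell at 500 nM, where 20.8% were called (11% higher, 9.83% lower). In 22Rv1, 8 of 37 rose and 0 fell at 100 nM, where 6.55% of all genes were called (3.19% higher, 3.36% lower), and 7 rose and 0 fell at 500 nM, where 6.97% were called (3.47% higher, 3.5% lower). Both doses of a line were compared with the same 3 DMSO libraries.

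The lysosomal genes had a median log2 fold change at 500 nM of 0.25 (LNCaP), 0.27 (22Rv1) and 0.47 (LNCaP95), beside -0.00709, -0.00176 and 0.0317 over all genes tested. At 100 nM it was 0.22, 0.22 and 0.50, beside -0.00344, -0.0115 and 0.0314. The 37 genes together took 0.447% to 0.475% of the counts of a library with DMSO in LNCaP and 0.532% to 0.584% with drug. In 22Rv1 they took 0.394% to 0.410% with DMSO and 0.415% to 0.460% with drug, and in LNCaP95 0.501% to 0.526% and 0.703% to 0.801%. In each line the treated libraries all lay above the DMSO libraries in this share. Gene by gene, the 3 treated and 3 DMSO libraries did not overlap at 500 nM for 20 genes in LNCaP, 24 in 22Rv1 and 30 in LNCaP95, where 40.8%, 31.2% and 58.9% of all genes tested did not. At 100 nM this held for 14, 16 and 33 genes, beside 36.8%, 24.7% and 60.5% of all.

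Calls differed in how far they rested on single libraries. Of the genes called, 8 of 11 kept the call on leaving out any 1 of the 6 libraries compared at 100 nM in LNCaP, and 6 of 11 at 500 nM. In 22Rv1 these were 3 of 8 and 3 of 7, the same genes at each dose (NEU1, ASAH1 and LAMP3). In LNCaP95 they were 29 of 32 and 29 of 31. Same-numbered LNCaP DMSO and 500 nM libraries deviated together, but DMSO replicate 3 did so equally with 500 nM replicates 2 and 3 (correlation 0.131 with each). A pairing by number is therefore unclear there. In LNCaP at 500 nM the replicate number as a block gave 18 higher and 3 lower. With it GLA (0.48, adjusted p = 0.0421), ATP6V0D1 (0.32, 0.0162) and ATP6V1B2 (0.26, 0.0193) were called higher, as were CTSD, TPP1, LAMP2, CLN3 and ATP6V0E1 (0.0184 to 0.0463), and GAA (-0.29, 0.0119) and GUSB (-0.26, 0.0447) lower, beside MAN2B1. These 10 genes are added to the 11 called without it. With LNCaP replicates 2 and 3 only, 17 genes were called at each dose (15 higher and 2 lower at 100 nM, 16 and 1 at 500 nM). At 500 nM in LNCaP the count was 6, 7 and 7 without DMSO replicate 2, DMSO replicate 3 and 500 nM replicate 2. Without 22Rv1 DMSO replicate 3 the counts were 4 (100 nM) and 3 (500 nM). Without the treated replicate 2 libraries of LNCaP95 they were 30 and 29.

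**Figure D1:**
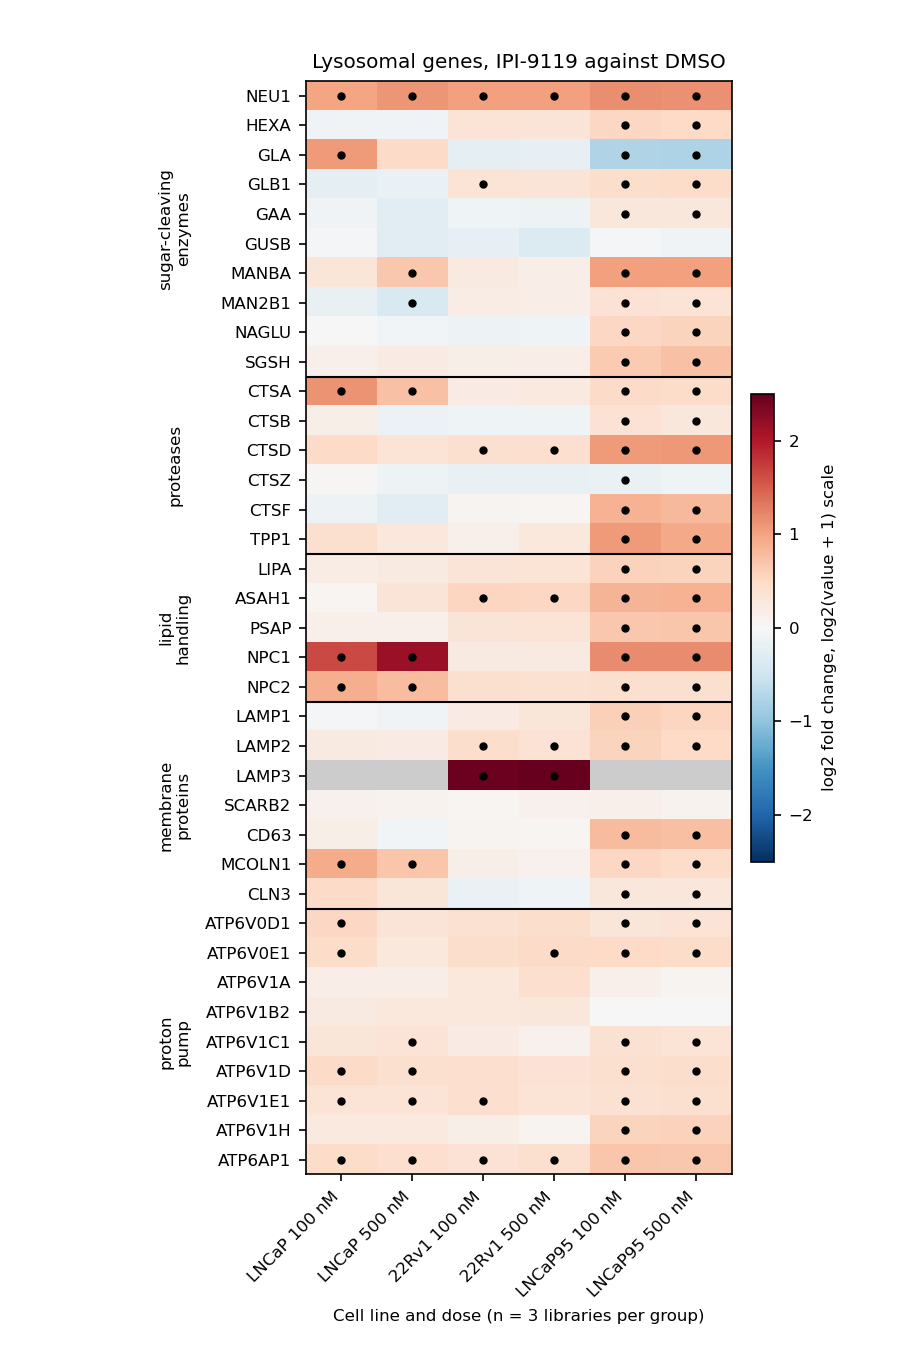
Log2 fold change of each of the 37 genes (rows, grouped by role) against DMSO in each line and dose (columns, n = 3 libraries per group), on the log2(normalised count + 1) scale; dots mark an adjusted p under 0.05 and grey marks genes not tested. The LNCaP95 columns carry most of the dots, NEU1 and ATP6AP1 are marked in all 6 columns, and the scale ends at 2.5 in either direction.

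**Figure D2:**
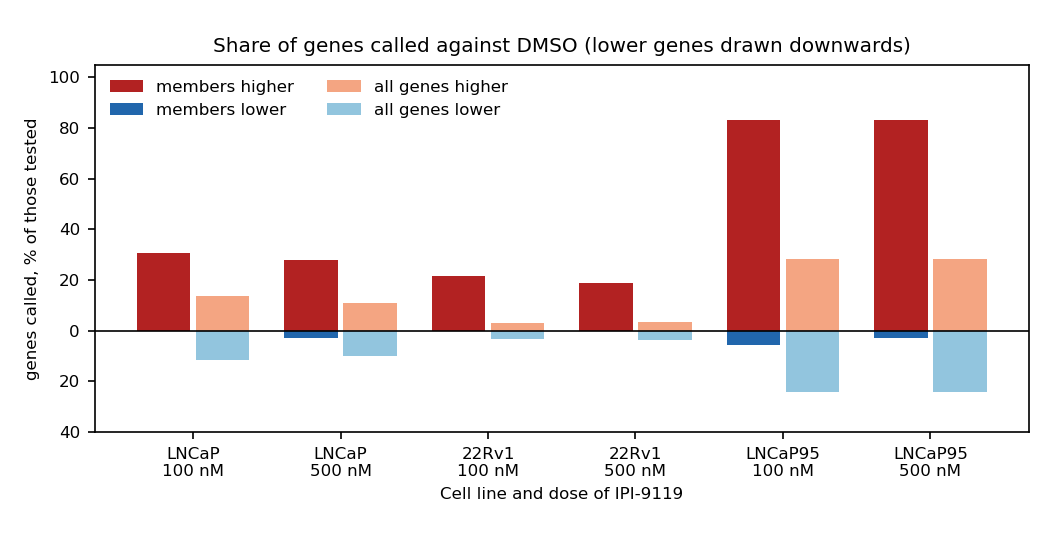
Percent of tested genes called higher (above 0) and lower (below 0) against DMSO, for the 37 lysosomal genes and for all genes, by line and dose. In LNCaP95 the lysosomal bars reach 30 of 36 genes called higher, beside 28.2% of all genes.

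Among the sugar-cleaving enzymes, NEU1, the sialidase that removes terminal sialic acid, rose in every line at both doses. In LNCaP its normalised count was 1005, 679 and 686 with DMSO, 2149, 1386 and 1232 at 100 nM, and 1966, 1474 and 1601 at 500 nM. In 22Rv1 it was 1860, 1593 and 1687 with DMSO, 3645, 3765 and 3117 at 100 nM, and 3588, 3241 and 3571 at 500 nM. In LNCaP95 it was 1261, 1195 and 1126 with DMSO, 2868, 2468 and 2721 at 100 nM, and 2761, 2428 and 2712 at 500 nM. The treated and DMSO libraries did not overlap in any line, and the level with drug was close to 2-fold that with DMSO. The log2 fold change at 500 nM was 1.10 ± 0.209 in LNCaP (adjusted p = 0.00416), 1.02 ± 0.101 in 22Rv1 (0.000174) and 1.14 ± 0.0794 in LNCaP95 (3.33e-07). At 100 nM it was 0.99 ± 0.209, 1.03 ± 0.101 and 1.17 ± 0.0794.

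GLA, the alpha-galactosidase whose loss causes Fabry disease, rose in LNCaP and fell in LNCaP95 at 100 nM. In LNCaP95 it was 1221, 1240 and 1381 with DMSO, 745, 761 and 776 at 100 nM, and 639, 801 and 808 at 500 nM. All treated libraries lay below all DMSO libraries, a fall of 0.75 at 100 nM (adjusted p = 2.37e-05) and 0.78 at 500 nM (adjusted p = 1.75e-05) on the log2 scale. In LNCaP it was 627, 393 and 347 with DMSO, 879, 1025 and 879 at 100 nM, and 698, 597 and 562 at 500 nM. It rose at 100 nM (1.07 ± 0.187, adjusted p = 0.0026), while at 500 nM DMSO replicate 1 lay among the treated libraries (0.48 ± 0.187, adjusted p = 0.089, and 0.0421 with the replicate block, and 0.65, adjusted p = 0.00198, with replicates 2 and 3 only). In 22Rv1 it was at -0.22 and -0.21 and was not called.

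MAN2B1, the lysosomal alpha-mannosidase, also went both ways, at 500 nM and with smaller changes. In LNCaP it was 4343, 4073 and 4208 with DMSO and 3515, 3166 and 3041 at 500 nM, a fall of 0.38 (adjusted p = 0.0325) that was lost on leaving out any of 4 of the 6 libraries (DMSO replicates 2 and 3, 500 nM replicates 2 and 3, adjusted p 0.0728 to 0.115). In LNCaP95 it was 693, 649 and 723 with DMSO and 1035, 831 and 770 at 500 nM, a rise of 0.34 ± 0.111 (adjusted p = 0.0196) that did not hold without DMSO replicate 2 or 500 nM replicate 1 (adjusted p 0.0647 and 0.0927). MANBA, the beta-mannosidase, rose at 500 nM in LNCaP (0.68 ± 0.134) and in LNCaP95 (1.03 ± 0.0889, adjusted p = 1.49e-06). Its LNCaP95 libraries stood at 933, 855 and 850 with DMSO and at 1993, 1720 and 1670 at 500 nM.

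The other enzymes of glycan breakdown were called mainly in LNCaP95. GLB1, the beta-galactosidase, was 1852, 1611 and 1794 with DMSO there and 2514, 2420 and 2327 at 500 nM, a rise of 0.47 ± 0.0703 (adjusted p = 0.000108). In 22Rv1 it rose at 100 nM only just past the threshold (0.33 ± 0.089, adjusted p = 0.0445, lost without 5 of the 6 libraries) and was at 0.32 at 500 nM (adjusted p = 0.0525). At 500 nM there it was called by edgeR (0.0419), DESeq2 (0.0110) and with all 27 libraries in 1 fit (0.0207). In LNCaP it was at -0.24 and -0.16 and was not called by that line's own fit. It was called lower there at 100 nM with all 27 libraries (0.0401) or replicates 2 and 3 only (0.00938). HEXA, a subunit of beta-hexosaminidase (0.50 at 500 nM), GAA, the acid alpha-glucosidase (0.28), and NAGLU and SGSH, both of heparan sulfate breakdown (0.57 and 0.73), rose in LNCaP95 at both doses and were not called in LNCaP or 22Rv1 in the fit of each line alone. GAA was on the other side of 0 in LNCaP, at 2954, 2539 and 2449 with DMSO and 2250, 2181 and 2035 at 500 nM (-0.29 ± 0.0978, adjusted p = 0.055), and was called lower there with the block (0.0119), edgeR (0.0473), DESeq2 (0.0346) and all 27 libraries in 1 fit (0.0313). GAA, like MCOLN1, has TCACGTGA at 2 places in its promoter. Its LNCaP95 call was lost without 4 of the 6 libraries at each dose (adjusted p up to 0.0938 and 0.118), and without the treated replicate 2 libraries (0.0712 and 0.0751). GUSB, the beta-glucuronidase, whose pseudogenes may share its reads, was not called in any line by its own fit (-0.26, -0.35 and -0.09 at 500 nM), and in LNCaP was called lower with the block (adjusted p = 0.0447), and in 22Rv1 at equal totals (0.0144) or with all 27 libraries in 1 fit (0.0317).

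**Figure D3:**
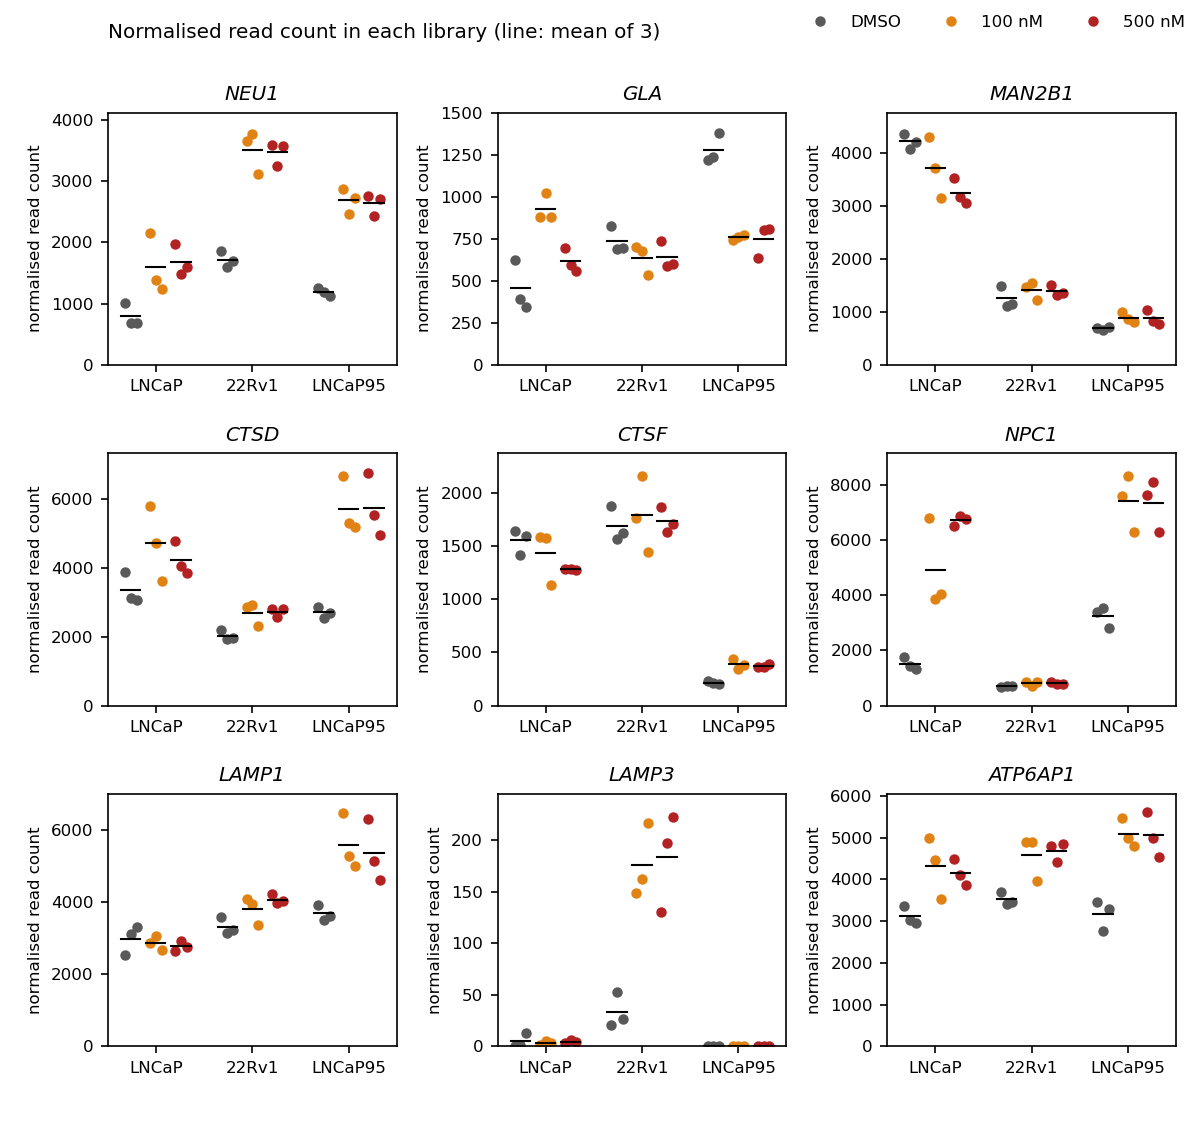
Normalised read count of 9 of the genes in each library (points) with the mean of 3 libraries (line), by cell line and treatment; each panel starts at 0 and has its own axis, and the genes were picked after their values were seen. NEU1 and ATP6AP1 lie higher with drug in all 3 lines, GLA lies lower with drug in LNCaP95, and LAMP3 is at 0 in all 9 LNCaP95 libraries.

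Of the 6 proteases, CTSD, the aspartic protease cathepsin D, rose in LNCaP95 and 22Rv1. In LNCaP95 it was 2858, 2553 and 2689 with DMSO, 6649, 5283 and 5170 at 100 nM, and 6730, 5528 and 4938 at 500 nM, with no overlap (1.07 ± 0.116 and 1.08 ± 0.116, adjusted p = 8.04e-06 and 7.59e-06). In 22Rv1 it was 2182, 1938 and 1954 with DMSO and 2789, 2557 and 2789 at 500 nM (0.42 ± 0.107, adjusted p = 0.0337), a call lost without 5 of the 6 libraries (adjusted p up to 0.123). In LNCaP it was 3862, 3126 and 3064 with DMSO, 5798, 4728 and 3599 at 100 nM, and 4776, 4051 and 3856 at 500 nM, where 1 treated library lay under the highest DMSO library at each dose (0.47, adjusted p = 0.0509, and 0.34, adjusted p = 0.157). CTSD passed in LNCaP at both doses when libraries were scaled to equal totals (adjusted p = 0.0167 and 0.0485) or with replicates 2 and 3 only (0.0195 and 0.0452). The block also called it there at both doses (0.00393 and 0.0196). At 100 nM edgeR (0.0423), DESeq2 (0.0147) and all 27 libraries in 1 fit (0.0147) called it in LNCaP. The 22Rv1 call was lost with all 27 libraries at both doses (0.0829 and 0.0680), and at 100 nM with no filter (0.0567) or the block (0.0523).

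CTSA, the protective protein that holds NEU1 and GLB1 in a complex, rose in LNCaP and LNCaP95. LNCaP libraries stood at 644, 467 and 433 with DMSO, at 1186, 1174 and 981 at 100 nM, and 920, 816 and 786 at 500 nM (1.13 ± 0.145 and 0.73 ± 0.145, adjusted p = 0.000469 and 0.00553). In LNCaP95 it was 466, 378 and 493 with DMSO and 669, 623 and 532 at 500 nM (0.45 ± 0.116, adjusted p = 0.00558). In 22Rv1, where its level with DMSO was the highest of the 3 lines (1513 ± 124, SD), it was at 0.21 and 0.24 and was not called. Its exons overlap those of NEURL2 and PLTP on the opposite strand in GENCODE v29.

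TPP1, the tripeptidyl peptidase lost in a neuronal ceroid lipofuscinosis, and CTSF, a cysteine cathepsin, rose in LNCaP95, and for both the effect there was larger than in either other line (tests of the differences are given with the other genes). TPP1 was 1592, 1370 and 1588 with DMSO there and 3840, 2636 and 2482 at 500 nM (0.95 ± 0.146, adjusted p = 0.000124). CTSF was 228, 211 and 199 with DMSO and 367, 360 and 389 at 500 nM (0.81 ± 0.104, adjusted p = 3.05e-05). CTSB, cathepsin B, rose there by less (0.37 and 0.29), and at 500 nM its call was lost without the treated replicate 2 libraries (0.26, adjusted p = 0.0588). CTSZ, cathepsin Z, fell in LNCaP95 at 100 nM (-0.18 ± 0.0687, adjusted p = 0.046), a call lost without any 1 of the 6 libraries (adjusted p 0.0524 to 0.171), and was called in no line at 500 nM.

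All 5 genes of lipid handling rose in LNCaP95 at both doses, where 28.2% of all genes tested were called higher at each dose. NPC1, the membrane transporter that moves cholesterol out of the lysosome, had the largest change of the 36 genes tested in LNCaP. There it was 1773, 1441 and 1334 with DMSO, 6801, 3856 and 4061 at 100 nM, and 6517, 6871 and 6764 at 500 nM. The 500 nM libraries lay close together, while 100 nM replicate 1 stood apart from replicates 2 and 3 at the level of the higher dose. The rise was 1.65 ± 0.185 at 100 nM (adjusted p = 0.000198) and 2.16 ± 0.185, or 4.46-fold, at 500 nM (adjusted p = 3.41e-05). In LNCaP95 NPC1 was 3405, 3527 and 2809 with DMSO, 7589, 8334 and 6299 at 100 nM, and 7644, 8126 and 6310 at 500 nM (1.19 ± 0.121 and 1.18 ± 0.121, adjusted p = 5.22e-06 and 5.4e-06). In 22Rv1 it was 671, 713 and 697 with DMSO, 844, 719 and 872 at 100 nM, and 851, 788 and 793 at 500 nM. The treated 22Rv1 libraries all lay above the DMSO libraries, by little, and the gene was not called (0.22 at each dose, adjusted p = 0.227 and 0.212).

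NPC2, the soluble partner of NPC1, rose in LNCaP and LNCaP95. LNCaP libraries held 1399, 918 and 900 with DMSO and 2225, 1661 and 1579 at 500 nM (0.78 ± 0.2, adjusted p = 0.019), which did not hold on leaving out DMSO replicate 2, DMSO replicate 3 or 500 nM replicate 1 (adjusted p 0.0753 to 0.0794). In LNCaP95 it rose by 0.40 ± 0.0763 at 500 nM, and in 22Rv1 it was at 0.37 (adjusted p = 0.116). LIPA, the acid lipase, was 1112, 1061 and 1019 with DMSO in LNCaP95 and 1569, 1588 and 1511 at 500 nM, a rise of 0.55 ± 0.0785 (adjusted p = 7.27e-05). It was at 0.23 in LNCaP and 0.34 in 22Rv1 at 500 nM and was called in neither. ASAH1, the acid ceramidase, rose in 22Rv1 from 2219, 2133 and 2014 to 3241, 2914 and 2975 at 500 nM (0.52 ± 0.0918, adjusted p = 0.00647) and in LNCaP95 by 0.87 ± 0.0925. LNCaP gave 0.32 at 500 nM (adjusted p = 0.113), and was called at equal totals (0.0336) or with all 27 libraries in 1 fit (0.0408). PSAP, the precursor of the saposins that help hydrolases reach sphingolipids, was 21358, 21336 and 19340 with DMSO in LNCaP95 and 37821, 33296 and 29993 at 500 nM (0.70 ± 0.109, adjusted p = 0.000149). It was at 0.13 in LNCaP and 0.34 in 22Rv1 and was called in neither by the line's own fit. In 22Rv1 at 500 nM it was called higher by edgeR (adjusted p = 0.0466), DESeq2 (0.0122) and with all 27 libraries in 1 fit (0.0371).

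Among the membrane proteins, LAMP3 had the largest change and the lowest level. LAMP3, also known as a maturation marker of dendritic cells, was 21.1, 53.0 and 26.8 in 22Rv1 with DMSO, 149, 162 and 216 at 100 nM, and 131, 197 and 222 at 500 nM. The groups did not overlap, and every treated library was well above the highest DMSO library (log2 fold change 2.44 ± 0.307 and 2.48 ± 0.307, adjusted p = 0.00078 and 0.000719). The gene was at 0 in all 9 LNCaP95 libraries and at 0 to 13.0 in the LNCaP libraries, too low to be tested for the drug in either line. Macrophage markers in the 22Rv1 libraries summed to 3.78 to 18.6 normalised counts, below LAMP3 itself.

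LAMP1, a main glycoprotein of the lysosomal membrane, rose in LNCaP95, from 3936, 3512 and 3629 with DMSO to 6478, 5286 and 5002 at 100 nM and 6308, 5143 and 4631 at 500 nM (0.59 ± 0.116 and 0.53 ± 0.116, adjusted p = 0.000831 and 0.00189). In 22Rv1 it was at 0.30 at 500 nM (adjusted p = 0.0858) and in LNCaP at -0.09 (adjusted p = 0.572), with overlapping groups in LNCaP. DESeq2 called the 22Rv1 rise at 500 nM (adjusted p = 0.0366). LAMP2, its paralog needed for autophagosome fusion, rose in LNCaP95 (0.50 ± 0.072 at 500 nM) and in 22Rv1, where it was 1344, 1536 and 1555 with DMSO and 2005, 1912 and 1795 at 500 nM (0.37 ± 0.0962, adjusted p = 0.0394, lost without any 1 of the 6 libraries, adjusted p 0.0727 to 0.147). MCOLN1, the calcium channel of the lysosome, was 415, 379 and 347 with DMSO in LNCaP, 827, 753 and 594 at 100 nM and 757, 589 and 518 at 500 nM (0.92 ± 0.158 and 0.69 ± 0.158, adjusted p = 0.0024 and 0.0107). It also rose in LNCaP95 (0.47 ± 0.0949) and was at 0.12 in 22Rv1. CD63, a tetraspanin of late endosomes and exosomes, rose in LNCaP95 from 9194, 8947 and 9209 to 16232, 15338 and 14429 at 500 nM (0.75 ± 0.0824, adjusted p = 8.9e-06) and was at -0.06 in LNCaP and 0.06 in 22Rv1. CLN3 rose by 0.28 in LNCaP95 at 500 nM, a call lost with all 27 libraries in 1 fit (adjusted p = 0.106). In LNCaP it was at 0.47 (100 nM) and 0.31 (500 nM) and was not called by that line's own fit. At 100 nM it was called there with the block (adjusted p = 0.00249), equal totals (0.0271), DESeq2 (0.0301), all 27 libraries (0.0127) or replicates 2 and 3 only (0.00941). At 500 nM the block (0.0184) and replicates 2 and 3 only (0.0388) called it. SCARB2, the receptor that carries beta-glucocerebrosidase to the lysosome, was called in no line at either dose.

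The 9 genes of the proton pump moved by small amounts and mostly in 1 direction. In LNCaP95 7 of 9 rose at each dose, in LNCaP 5 rose at 100 nM and 4 at 500 nM, and in 22Rv1 2 rose at each dose, with 0 falls in any line. Of all genes tested, 28.2% were called higher and 24.1% lower at each dose in LNCaP95. In LNCaP 13.7% were higher and 11.6% lower at 100 nM, and 11% and 9.83% at 500 nM. In 22Rv1 3.19% were higher and 3.36% lower at 100 nM, and 3.47% and 3.5% at 500 nM. ATP6AP1, an accessory subunit needed for assembly of the pump, rose in all 3 lines at both doses. Its counts were 3360, 3028 and 2953 with DMSO and 4480, 4092 and 3870 at 500 nM in LNCaP. They were 3705, 3416 and 3463 with DMSO and 4788, 4417 and 4836 at 500 nM in 22Rv1, and 3459, 2773 and 3280 with DMSO and 5618, 4996 and 4539 at 500 nM in LNCaP95. Treated and DMSO libraries did not overlap in any line. The log2 fold change was 0.41 ± 0.122 (adjusted p = 0.034), 0.41 ± 0.1 (0.0305) and 0.67 ± 0.0982 (8.6e-05). The call at 500 nM was lost without 5 of the 6 libraries in LNCaP (adjusted p up to 0.123) and without 5 of the 6 in 22Rv1 (up to 0.111). At 100 nM it was lost without 4 of the 6 in LNCaP (up to 0.0715) and 5 of the 6 in 22Rv1 (up to 0.206). The 22Rv1 call at 100 nM was also lost with no filter (adjusted p = 0.0678), at equal totals (0.0590) and with the block (0.0645).

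Among the other pump genes, ATP6V1D, a subunit of the rotor stalk, rose in LNCaP from 1433, 1446 and 1503 to 2005, 1831 and 1918 at 500 nM (0.39 ± 0.0861, adjusted p = 0.00899) and in LNCaP95 by 0.44 ± 0.0764. In 22Rv1 it was at 0.42 (100 nM) and 0.36 (500 nM) and was not called by that line's own fit. It was called there at both doses by DESeq2 (adjusted p = 0.0191 and 0.0486) and with all 27 libraries in 1 fit (0.00813 and 0.0183). ATP6V1E1, of the stator, rose in LNCaP and LNCaP95 at 500 nM (0.35 ± 0.0839 and 0.40 ± 0.0626), with the LNCaP call lost without DMSO replicate 2 or 500 nM replicate 2 (adjusted p up to 0.0578). At 100 nM it also rose in 22Rv1, a call lost without 4 of the 6 libraries (adjusted p up to 0.128). At 500 nM in 22Rv1 it was at 0.35, not called by the line's own fit but by DESeq2 (0.0231) and with all 27 libraries (0.00697). ATP6V0E1, of the membrane sector, rose in 22Rv1 from 1299, 1133 and 1153 to 1863, 1554 and 1615 (0.49 ± 0.126, adjusted p = 0.0374, lost without 5 of the 6 libraries) and in LNCaP95 by 0.47 ± 0.0776. In LNCaP it rose at 100 nM, a call lost without 4 of the 6 libraries (adjusted p up to 0.0838). ATP6V1H, a regulatory subunit, rose in LNCaP95 from 1259, 1290 and 1229 to 1865, 1722 and 2037 at 500 nM (0.57 ± 0.0718, adjusted p = 2.55e-05), as did ATP6V0D1 (0.34 ± 0.0642) and ATP6V1C1 (0.35 ± 0.0745). ATP6V1C1 was also called at 500 nM in LNCaP (0.33, adjusted p = 0.045), and lost the call without any 1 of the 6 libraries (adjusted p 0.0504 to 0.178). ATP6V1A and ATP6V1B2, the subunits that form the ATP-binding ring, were not called in any line by its own fit. ATP6V1B2 was at 0.26 in LNCaP, 0.28 in 22Rv1 and 0.02 in LNCaP95 at 500 nM. It was called in LNCaP with the block (adjusted p = 0.0193), equal totals (0.0339), all 27 libraries in 1 fit (0.0258) or replicates 2 and 3 only (0.0253), and in 22Rv1 by DESeq2 (0.0241) or with all 27 libraries (0.0306). ATP6V1A was 2736, 2857 and 2613 with DMSO in LNCaP95 and 2864, 2965 and 2797 at 500 nM, and was at 0.07 there, 0.17 in LNCaP and 0.42 in 22Rv1. In LNCaP95 at 100 nM it was at 0.13 (adjusted p = 0.0994), and passed with the replicate number as a block (adjusted p = 0.0493).

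Of the 5 genes with the CLEAR core in the promoter, 5 rose at 500 nM in LNCaP95, where 30 of 36 members and 28.2% of all genes rose. In LNCaP 2 rose (CTSA and MCOLN1), where 10 of 36 members and 11% of all genes did. In 22Rv1 0 rose, where 7 of 37 members and 3.47% of all genes did. At 500 nM ATP6V0D1 was at 0.32 in LNCaP (adjusted p = 0.0587) and 0.44 in 22Rv1 (0.0598), and was called higher in both with the block (0.0162 and 0.0475), edgeR (0.0436 and 0.0478) and DESeq2 (0.0270 and 0.0182). At 100 nM it rose in LNCaP, a call kept on leaving out any 1 library. Of the 5 genes with the E-box but not the CLEAR core, NEU1 rose at 500 nM in 3 lines, CTSD in 2, and CTSF, CD63 and CLN3 in 1. CTSD and CLN3 were also called higher in LNCaP with the block (0.0196 and 0.0184).

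A single 500 nM effect fitted over the 3 lines, with the line as a term, called 25 of 36 lysosomal genes higher and 2 lower, where 22.9% of all genes tested were called (13% higher, 9.86% lower). All 5 lipid handling genes and all 9 proton pump genes were among the 25, with pump effects of 0.19 (ATP6V1B2) to 0.50 (ATP6AP1). NEU1 (1.09 ± 0.076, adjusted p = 4.78e-08), ATP6V1E1 (0.36 ± 0.0455, 2.8e-05), ATP6AP1 (0.50 ± 0.063, 3.19e-05) and ASAH1 (0.57 ± 0.073, 3.58e-05) had the smallest p. The pair called lower was GUSB (-0.23 ± 0.0573, adjusted p = 0.00719) and CTSZ (-0.14 ± 0.0445, adjusted p = 0.0323). Of the 27 calls, 23 held on leaving out any 1 of the 18 libraries, and those of GLB1, LAMP1, ATP6V1A and CTSZ were lost without 5 to 14 of them. NPC1 had the largest common effect (1.19 ± 0.193), an average over lines whose effects differed.

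No lysosomal gene was called between 500 nM and 100 nM in any line. Limma, edgeR and DESeq2 each called 0 members in each line, while 5 of 36 in LNCaP, 0 of 37 in 22Rv1 and 0 of 36 in LNCaP95 had an unadjusted p under 0.05. Of all genes, 0.00779% were called in LNCaP and 0% in the other lines. In LNCaP the differences ran from -0.58 (GLA) to 0.50 (NPC1), and the widest 95% intervals reached -0.995 and 0.91. In 22Rv1 they ran from -0.14 to 0.14 with intervals reaching -0.63 and 0.71, and in LNCaP95 from -0.10 to 0.07 with intervals reaching -0.42 and 0.29. With LNCaP replicates 2 and 3 only, NPC1 (0.78, adjusted p = 0.000772), MANBA (0.55) and ASAH1 (0.38) were called higher and GLA lower (-0.71, adjusted p = 0.00621) at 500 nM. NPC1 was also called without 100 nM replicate 1 alone, the library with FASN at the level of the 500 nM libraries. In LNCaP95 the libraries of 100 nM and 500 nM with the same replicate number were more alike than replicates of a dose: their counts differed by a chi-square per degree of freedom of 2.59 to 4.29, against 16.6 to 52.3 between replicates. Whether same-numbered libraries of the 2 doses share a culture is not stated in the labels.

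Differences of the 500 nM effect between lines were tested in 1 fit of all 27 libraries, over genes expressed in each line. The effect was larger in LNCaP95 than in LNCaP for 15 of 36 lysosomal genes and smaller for 2, where 38.9% of all genes differed (19.8% upward, 19.1% downward). CTSF (1.08 ± 0.181, adjusted p = 4.7e-05), CD63 (0.81 ± 0.172, 0.000652), MAN2B1 (0.72 ± 0.178), GLB1 (0.63 ± 0.123, 0.000278) and LAMP1 (0.62 ± 0.16) were among the 15. GLA (-1.26 ± 0.222, adjusted p = 8.42e-05) and NPC1 (-0.98 ± 0.218, adjusted p = 0.000962) were the pair with the smaller effect. NEU1, which rose in both lines, differed by 0.04 ± 0.221, and ATP6AP1 by 0.26 ± 0.161 (adjusted p = 0.211).

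The effect in LNCaP95 exceeded that in 22Rv1 for 11 of 36 genes and was smaller for 0, where 25.4% of all genes differed (13% upward, 12.4% downward). GLA stood at -0.57 ± 0.222 in this contrast (adjusted p = 0.0599) and was called as smaller in LNCaP95 with the block (0.0213), edgeR (0.0494), DESeq2 (0.0491), the libraries of the 2 lines alone (0.0182) or LNCaP replicates 2 and 3 only (0.0122). NPC1 (0.95 ± 0.218, adjusted p = 0.00261), MANBA (0.85 ± 0.18), CTSF (0.76 ± 0.181) and CD63 (0.69 ± 0.172) were among the largest, and the count of 11 became 6 without LNCaP95 500 nM replicate 1 and 7 without LNCaP95 DMSO replicate 2. Between 22Rv1 and LNCaP 3 genes had a larger effect in 22Rv1 (MAN2B1, GLB1 and HEXA) and 2 a smaller effect (NPC1 and GLA), where 14.3% of all genes differed (6.79% upward, 7.52% downward). NPC1 differed by -1.93 ± 0.218 (adjusted p = 1.27e-06) and GLB1 by 0.48 ± 0.123 (adjusted p = 0.00993), and these 2 alone kept the call on leaving out any 1 library. That split turned to 1 larger and 7 smaller when libraries were scaled to equal totals, which shifted the median of all genes from 0.01 to -0.14. MAN2B1, HEXA and GLA were not called from the libraries of the 2 lines alone (adjusted p = 0.0547, 0.0936 and 0.0846). MCOLN1 (-0.58) was called as smaller in 22Rv1 by edgeR (0.0420), DESeq2 (0.0335), with the block (0.00824) or at equal totals (0.00646).

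Of the 9 proton pump genes, 1 was called as differing between lines, ATP6V1H, with a larger effect in LNCaP95 than in LNCaP (0.32 ± 0.127, adjusted p = 0.0472, lost without 10 of 12 libraries, with the block, adjusted p = 0.0541, and at equal totals, 0.180) and than in 22Rv1 (0.49 ± 0.127, adjusted p = 0.00617). ATP6V1B2 was called with a smaller effect in LNCaP95 than in 22Rv1 with the block (-0.27, adjusted p = 0.0422) or LNCaP replicates 2 and 3 only (0.0441), and than in LNCaP at equal totals (-0.34, 0.0471). In LNCaP95 the mitosis genes were lower with drug in all 6 treated libraries, and in LNCaP they were higher in all 6 treated libraries than in DMSO replicates 2 and 3. Their part in these differences was not tested.

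**Figure D4:**
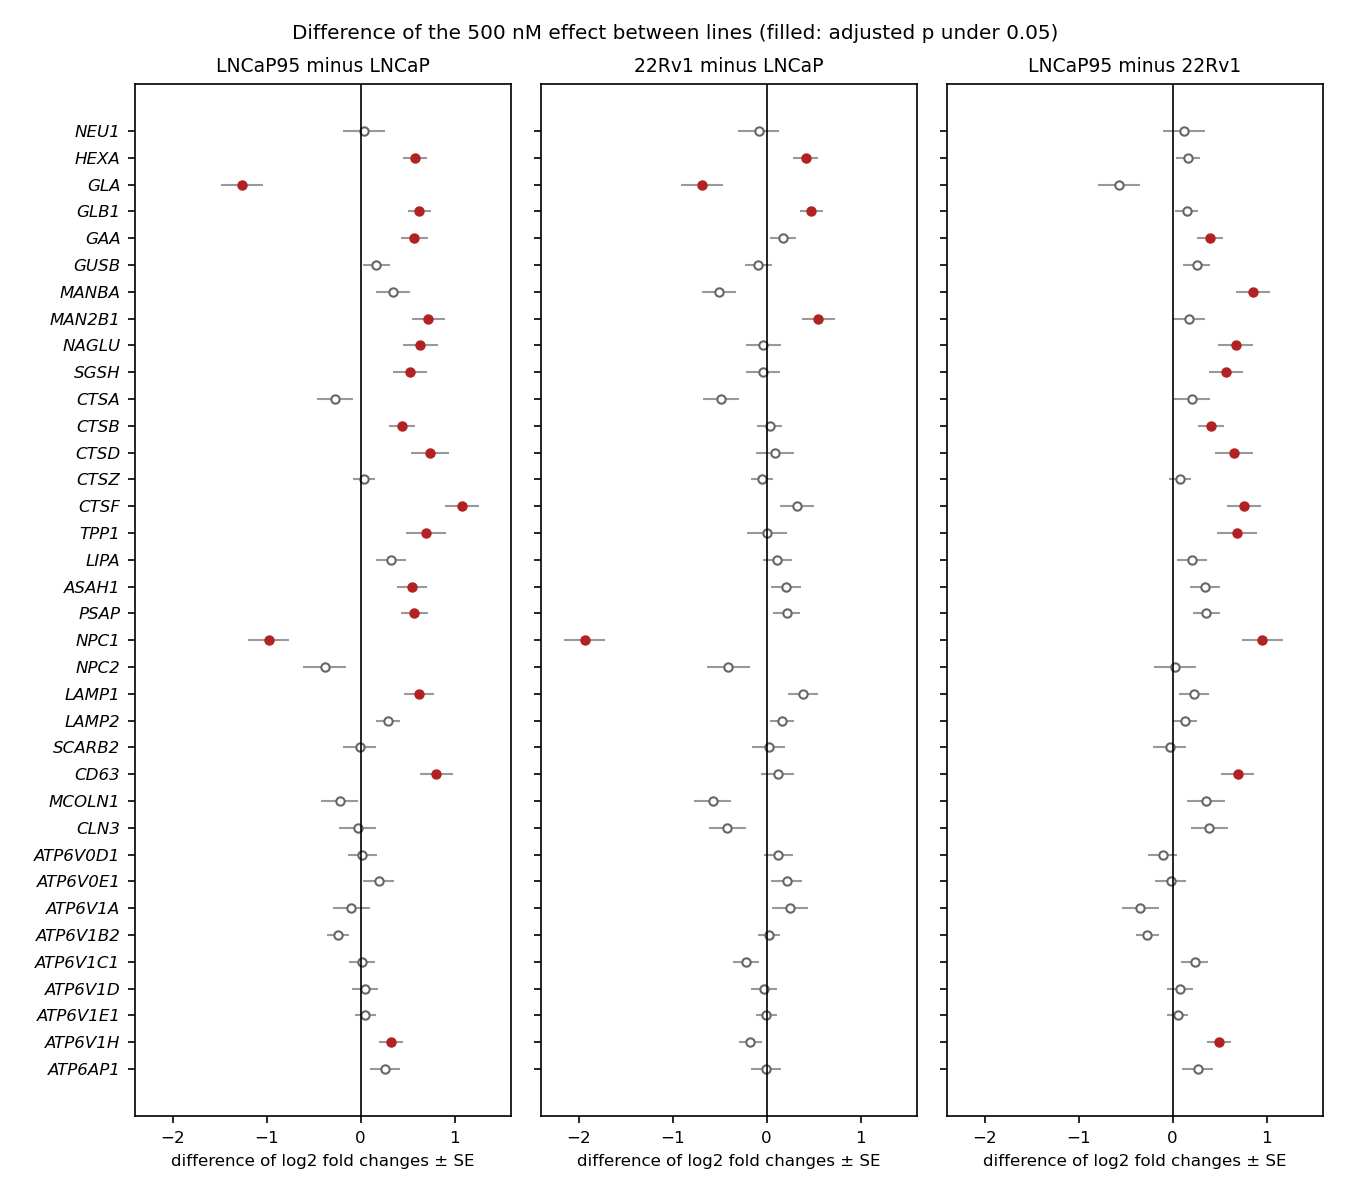
Difference of the 500 nM log2 fold change between lines for 36 genes (points) with its standard error (bars), for LNCaP95 minus LNCaP, 22Rv1 minus LNCaP and LNCaP95 minus 22Rv1; filled points have an adjusted p under 0.05. Most filled points lie to the right in the panels with LNCaP95 first, and GLA and NPC1 lie to the left of 0 against LNCaP.

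Without drug the lines differed in many lysosomal genes, as they did in most genes. Levels per kb were taken over the merged exons of all coding transcripts of a gene, which can be longer than the transcript expressed. Ranks between genes therefore depend on the annotation. Per kb of merged exon, PSAP had the highest level in LNCaP (6503 to 7351 normalised counts per kb) and in LNCaP95 (6692 to 7390), and CD63 in 22Rv1 (6666 to 8101). Each was in 2nd place where the other led, with no overlap between them within a line. LAMP3 was last in all 3 lines (0 to 14.0 per kb). CTSZ, ATP6V1E1 and ATP6V0D1 ranked from 3 to 8 in each line, and SGSH, CLN3, MANBA and ATP6V1C1 from 31 to 36. Other genes changed place between lines. CTSF ranked 13 in LNCaP and 22Rv1 and 35 in LNCaP95, and MAN2B1 ranked 6, 22 and 29 in LNCaP, 22Rv1 and LNCaP95.

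Between 22Rv1 and LNCaP with DMSO, 10 of 37 genes were higher in 22Rv1 and 19 lower, where 74.8% of all genes tested were called (39.3% higher, 35.5% lower). CTSB (-1.59 ± 0.094, adjusted p = 1.33e-13), LAMP2 (-1.29 ± 0.0876), HEXA (-1.32 ± 0.0918), MAN2B1 (-1.76 ± 0.126) and PSAP (-1.23 ± 0.103) were lower in 22Rv1, and CTSA (1.57 ± 0.135), NPC2 (1.19 ± 0.162), CD63 (1.18 ± 0.123) and NEU1 (1.14 ± 0.156) higher. NPC1 was lower in 22Rv1 by 1.12 on the log2 scale (-1.12 ± 0.155). Between LNCaP95 and LNCaP, 9 were higher in LNCaP95 and 10 lower (LAMP3, near 0 in both lines, among them), where 66.5% of all genes were called (34% higher, 32.5% lower). CTSF (-2.87 ± 0.128, adjusted p = 1.77e-15), MAN2B1 (-2.61 ± 0.126) and ASAH1 (-1.71 ± 0.112) were lower in LNCaP95, and GLA (1.54 ± 0.157), NPC1 (1.10 ± 0.155) and SCARB2 (0.74 ± 0.124) higher. At equal totals that split became 16 and 9, with the median of all genes moving from 0.01 to 0.21. LAMP3 entered this comparison through its 22Rv1 levels, and its call rested on LNCaP DMSO replicate 3 (13.0 normalised counts, with 0 and 0.948 in the other 2 libraries and 0 in LNCaP95). Between LNCaP95 and 22Rv1, 17 were higher in LNCaP95 and 13 lower, where 76.1% were called (35.4% higher, 40.8% lower), with NPC1 at 2.22 ± 0.155 and CTSF at -2.98 ± 0.128. GLA, which fell with drug in LNCaP95, was highest there without drug (1281 ± 87.0 normalised counts, SD), against 739 ± 77.6 in 22Rv1 and 456 ± 150 in LNCaP. With drug the 3 lines stood closer in GLA, the 500 nM libraries at 562 to 698 (LNCaP), 590 to 737 (22Rv1) and 639 to 808 (LNCaP95).

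**Figure D5:**
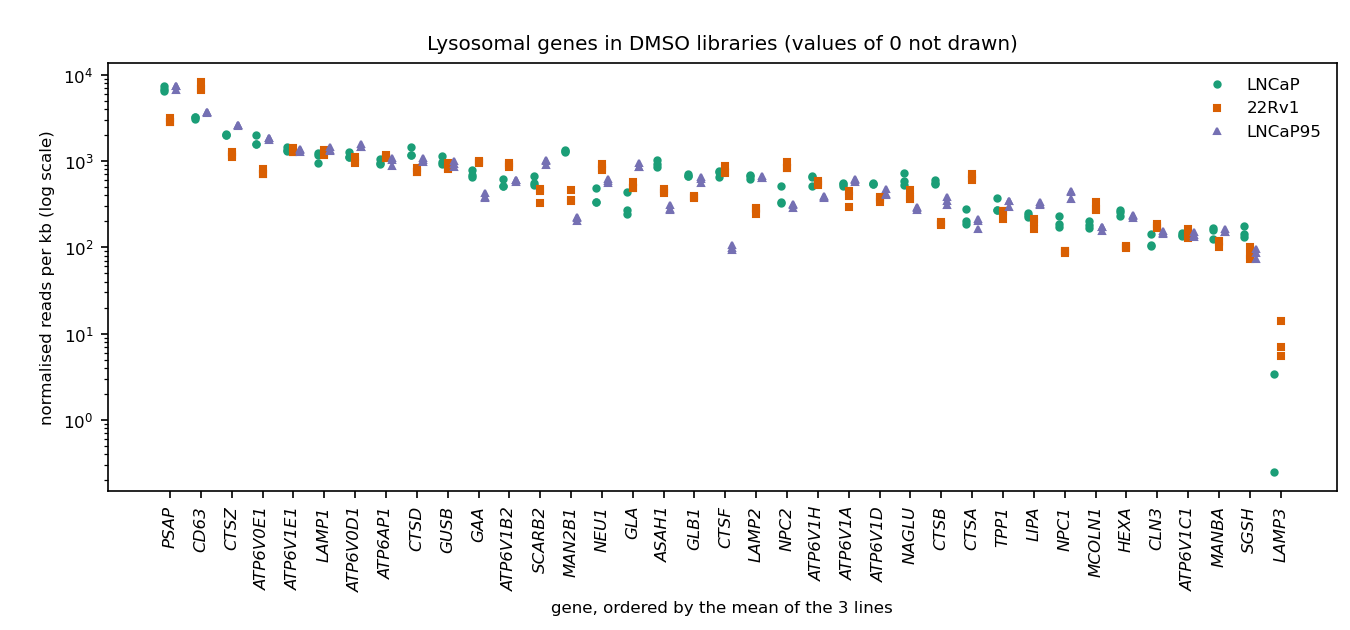
Normalised read count per kb of exon (log axis) of each of the 37 genes in the 3 DMSO libraries of each line (points), ordered by the mean over lines; values of 0 are not drawn. PSAP and CD63 stand at the top, LAMP3 at the bottom, and the LNCaP95 points of CTSF and MAN2B1 lie below those of LNCaP.

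Other genes of the pathway, taken from lists of genes with the same roles, were counted in the same way. Of 25 other lysosomal enzymes tested, 17 rose and 3 fell at 500 nM in LNCaP95, 4 rose and 1 fell in LNCaP, and 1 rose and 1 fell in 22Rv1. CTSO, a cysteine cathepsin, rose in LNCaP95 (1.79 ± 0.137, adjusted p = 6.28e-07) and LNCaP (0.93 ± 0.179), and SMPD1, the acid sphingomyelinase, rose in LNCaP95 (0.67 ± 0.0781) and 22Rv1 (0.57 ± 0.107, adjusted p = 0.00817). CTSC, the dipeptidyl peptidase that activates serine proteases of immune cells, fell in all 3 lines (-0.82 ± 0.153, -0.52 ± 0.129 and -1.06 ± 0.0841 in LNCaP, 22Rv1 and LNCaP95), and its 22Rv1 call (adjusted p = 0.0306) was lost without 5 of the 6 libraries. Of 13 other membrane proteins, 9, 3 and 1 rose in LNCaP95, LNCaP and 22Rv1 and 0, 1 and 0 fell. SLC17A5, the sialic acid exporter of the lysosome, rose in LNCaP95 (0.95 ± 0.0902) and LNCaP (0.77 ± 0.17), and CD68, also used as a macrophage marker, in LNCaP (1.92 ± 0.29, adjusted p = 0.00115), where the macrophage marker list summed to 3.00 to 9.94 over all 9 libraries.

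Of the other pump subunits tested, 8 of 10 rose and 1 fell in LNCaP95, 4 of 10 rose in LNCaP, and 1 of 11 rose and 1 fell in 22Rv1. TCIRG1 (1.06 ± 0.153 in LNCaP, 0.46 ± 0.0622 in LNCaP95) and ATP6V0B (0.77 ± 0.143 and 0.56 ± 0.0688) rose in the same pair of lines, and ATP6V1C2, an alternative form of ATP6V1C1, fell in 22Rv1 (-0.99 ± 0.144, adjusted p = 0.00207). Of 7 genes of delivery to the lysosome, 4 rose in LNCaP95, 1 in LNCaP and 1 in 22Rv1. GNPTAB, which makes the mannose 6-phosphate tag of lysosomal enzymes, rose in LNCaP (1.35 ± 0.147, adjusted p = 0.000139). In LNCaP95, SUMF1, the activator of sulfatases (0.72 ± 0.0819), and GNPTG, the partner of GNPTAB (0.999 ± 0.132), rose. Of the transcription factors TFEB, TFE3 and MITF, 0 of 3 were called at 500 nM in any line, with TFEB at 0.04, 0.08 and -0.04, TFE3 at 0.03, 0.31 and 0.24, and MITF at -0.31, 0.68 and 0.00423 in LNCaP, 22Rv1 and LNCaP95. TFE3 rose at 100 nM in LNCaP95 (0.26 ± 0.097, adjusted p = 0.0409, lost without 3 of 6 libraries, at equal totals, and by edgeR and DESeq2). The 500 nM effect on MITF was larger in 22Rv1 than in LNCaP (0.996 ± 0.276, adjusted p = 0.0159). That call was lost at equal totals (0.0560) and with LNCaP replicates 2 and 3 only (0.0691). TFE3 was called in the common effect (0.20 ± 0.0659, adjusted p = 0.0391), a call lost without 8 of 18 libraries. In each list the shares called stand beside the 20.8%, 6.97% and 52.3% of all genes in LNCaP, 22Rv1 and LNCaP95.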

How the data were processed

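Per the labels' protocols, directional libraries of poly(A) RNA from the 3 lines were sequenced on a NextSeq500. STAR 2.3.1z4, featureCounts, DESeq and build hg19 are named in the submitters' processing notes. Whether counting used the strand is not stated in these sources, so genes with overlapping exons (GLB1, MCOLN1, SGSH, CTSA, NPC2, CLN3 and ATP6V1D) are uncertain. The deposited signal is a read count divided by 1 size factor per library, as the values show: all values were whole multiples of the worth of 1 read (tolerance 1e-06), which was 0.757 to 1.39. In 2 libraries (LNCaP DMSO replicate 3, LNCaP95 100 nM replicate 1) that worth is just under 1, so there the division cannot be told from rounding by its size alone.

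Values were tested as log2(value + 1) with limma 3.58.1 (R 4.3.3), with an intensity trend and Benjamini-Hochberg adjustment over all genes tested, those at 10 or more in at least 3 libraries. Each line was fitted alone. The common effect used the 18 DMSO and 500 nM libraries with line as a term, and differences between lines and untreated comparisons used all 27. edgeR 4.0.16 and DESeq2 1.42.0 were run on recovered reads as alternatives, beside a pseudocount of 5, no filter, equal totals, a replicate block, other sets of libraries and leaving out each library. The fits were tested on simulated data. Levels per kb use merged exon lengths from the GENCODE v29 annotation. Same-numbered libraries deviated together in LNCaP95 (correlations 0.128 to 0.470 in 9 of 9 pairs), and in LNCaP for 100 nM and 500 nM (0.263 to 0.389). The labels state no pairing. In 22Rv1 differently numbered libraries reached 0.523 (DMSO replicate 1 with 100 nM replicate 2), so such correlations alone cannot show a pairing. For DMSO and 500 nM in LNCaP, same-numbered libraries were at 0.131 to 0.316 in 3 of 3. DMSO replicate 3 was also at 0.131 with 500 nM replicate 2, so a pairing by number is unclear for these groups. No 2 libraries of a group were identical.

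The genes and lists were chosen with earlier results of these data known. Named genes are, per comparison, up to 8 called members with the smallest p and 9 fixed anchors (GLB1, NEU1, CTSD, NPC1, LIPA, LAMP1, LAMP3, ATP6V1A, ATP6AP1), and up to 4 called genes of each other list.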

Additional observations from a re-analysis of the deposited data

Results flagged for a closer look

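The 500 nM effect differed between lines for 33 pairs of gene and contrast, by limma's test of the difference itself with adjustment over all genes. The share of lysosomal genes called was 47.2% for LNCaP95 minus LNCaP, 30.6% for LNCaP95 minus 22Rv1 and 13.9% for 22Rv1 minus LNCaP. Of all genes tested, 38.9%, 25.4% and 14.3% were called in these contrasts. Values are differences of log2 fold changes.

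For LNCaP95 minus LNCaP, the proteases and sugar-cleaving enzymes were at 1.08 (CTSF), 0.74 (CTSD), 0.72 (MAN2B1), 0.69 (TPP1), 0.64 (NAGLU), 0.63 (GLB1), 0.58 (HEXA), 0.57 (GAA), 0.53 (SGSH), 0.44 (CTSB) and -1.26 (GLA). The lipid handling genes were at 0.57 (PSAP), 0.55 (ASAH1) and -0.98 (NPC1), the membrane proteins at 0.81 (CD63) and 0.62 (LAMP1), and the pump gene ATP6V1H at 0.32. Adjusted p ran from 4.7e-05 (CTSF) to 0.0472 (ATP6V1H), and 14 of the 17 kept the call on leaving out any 1 of the 12 libraries.

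For LNCaP95 minus 22Rv1, the values were 0.95 (NPC1), 0.85 (MANBA), 0.76 (CTSF), 0.69 (CD63), 0.69 (TPP1), 0.67 (NAGLU), 0.65 (CTSD), 0.57 (SGSH), 0.49 (ATP6V1H), 0.41 (CTSB) and 0.40 (GAA). Adjusted p ran from 0.00139 (MANBA) to 0.0384 (GAA), and 6 of the 11 kept the call on leaving out any 1 library.

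For 22Rv1 minus LNCaP, the values were 0.55 (MAN2B1), 0.48 (GLB1), 0.41 (HEXA), -0.69 (GLA) and -1.93 (NPC1). Adjusted p was 1.27e-06 for NPC1 and 0.00993 for GLB1, the 2 that kept the call on leaving out any 1 library, and 0.0348 to 0.0387 for the others.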

How the results depend on the processing

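The number of lysosomal genes called depended on the setting in LNCaP and 22Rv1, and stayed within 1.5 times in LNCaP95, in the common effect and in the untreated comparisons. In LNCaP at 100 nM, 17 were called with a replicate block, 18 with all 27 libraries in 1 fit and 17 with replicates 2 and 3 only, and 8 to 15 on leaving out 1 library. At 500 nM these were 21, 17 and 17, and 6 to 17. In 22Rv1 at 100 nM, 5 were called with no filter, 5 at equal totals, 14 with DESeq2, and 3 to 14 on leaving out 1 library, 14 being without 100 nM replicate 3. At 500 nM 14 were called with DESeq2, 14 with all 27 libraries in 1 fit, 3 to 6 on leaving out 1 library, and 6 higher and 1 lower at equal totals, where the median of all genes moved to -0.09. Between 500 nM and 100 nM in LNCaP, 4 were called with replicates 2 and 3 only and 0 to 1 on leaving out 1 library. For 22Rv1 minus LNCaP, 3 were called with no filter, 8 at equal totals, 10 with a replicate block, 2 from the libraries of the 2 lines alone and 2 to 9 on leaving out 1 library, and for LNCaP95 minus 22Rv1 6 to 12. In LNCaP95, where same-numbered libraries deviated together, 33 (100 nM) and 31 (500 nM) were called with the block, and ATP6V1A gained its call at 100 nM. In LNCaP 6 of 9 same-numbered pairs correlated over 0.1, among them the 3 of DMSO and 500 nM but none of DMSO and 100 nM. In 22Rv1 4 of 9 did. For DMSO and 100 nM in LNCaP, and in 22Rv1, the correlations show no clear pairing by number. ATP6V1E1 in untreated LNCaP95 against LNCaP went from -0.04 to 0.16 at equal totals (adjusted p = 0.641 and 0.0370), the 1 reversal among 12014 alternative values of single genes, of which 11372 kept direction and call, 440 lost the call and 201 gained it. Where no other cause is given, the cause was not tested. At 3 libraries per group, LAMP3 in LNCaP and LNCaP95 was too low to test for the drug.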
